A study of Mus musculus with 4 samples.

Results

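Genes for the initiation and elongation factors of cytosolic translation were examined for peaks of Flag-tagged Nynrin. They were all protein-coding genes on chromosomes 1 to 19 whose mm10 symbol starts with Eif and a digit, or with Eef1 or Eef2, without the kinases named Eif2ak. This gave 64 of the 20665 protein-coding genes on these chromosomes. Shares over all genes are over the 21887 protein-coding genes of chromosomes 1 to 19, X and Y. One of the 64 genes, Eef1akmt4-ece2, is a readthrough gene that has the same start as Eef1akmt4, so these entries share their peaks. The study used Flag antibody chromatin immunoprecipitation followed by sequencing (ChIP-seq) on lineage-negative bone marrow cells of 3xFlag-Nynrin-Tg mice, which carry a transgene for triple-Flag-tagged Nynrin, on a C57BL/6 background at 8 weeks of age. Lineage-negative cells are marrow cells left after cells with mature blood-lineage markers are removed. Peak lists of 2 Flag ChIP libraries were analysed, and 2 input libraries of the same genotype, strain and age were not analysed here. The promoter that drives the transgene is not given in the sources used here, nor is the number of animals behind each library. Neither untagged cells nor a control antibody served as a reference here, and the peaks are those the authors called in the Flag ChIP libraries. A ChIP peak says nothing about how strongly a gene is expressed, and the cell type could not be checked against marker expression.

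Translation starts when the small ribosomal subunit, carrying eIF1, eIF1A, eIF3, eIF5 and the initiator tRNA bound to eIF2, is brought to the mRNA cap by eIF4F and scans to a start codon. eIF5B then helps the large subunit to join, while eIF2B and the eIF4E-binding proteins regulate how often the cycle runs. eEF1A then delivers each aminoacyl-tRNA, eEF2 moves the ribosome along, and eIF5A helps where peptide bonds form slowly. Blood-forming stem cells are known for an unusually low rate of protein synthesis, and many genes of this group are known targets of the growth regulator Myc, which binds the E-box CACGTG.

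The promoters of some paralogous genes that differ in whether a peak was called at their ends are printed first. Their letters show how CpG content differs between them. Each line holds the 200 bases before a start site listed by RefSeq (build GRCm38.p6, the assembly behind mm10), 5′ to 3′ on the gene's strand, with every CpG in capitals. Of the 6 starts listed for Eif5a, the one nearest to the summits was taken.
Eif5a (chr11:69921387-69921586, minus strand): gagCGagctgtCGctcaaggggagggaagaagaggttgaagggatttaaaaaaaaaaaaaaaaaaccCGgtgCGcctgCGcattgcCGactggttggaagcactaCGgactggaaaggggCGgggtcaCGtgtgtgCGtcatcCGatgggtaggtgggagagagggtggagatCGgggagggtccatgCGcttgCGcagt
Eif5a2 (chr3:28781077-28781276, plus strand): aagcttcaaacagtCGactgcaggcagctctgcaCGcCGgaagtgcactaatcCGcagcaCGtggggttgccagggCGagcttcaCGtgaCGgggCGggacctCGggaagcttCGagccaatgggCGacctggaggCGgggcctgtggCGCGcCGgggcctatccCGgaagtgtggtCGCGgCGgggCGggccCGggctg
Eef1a1 (chr9:78481725-78481924, minus strand): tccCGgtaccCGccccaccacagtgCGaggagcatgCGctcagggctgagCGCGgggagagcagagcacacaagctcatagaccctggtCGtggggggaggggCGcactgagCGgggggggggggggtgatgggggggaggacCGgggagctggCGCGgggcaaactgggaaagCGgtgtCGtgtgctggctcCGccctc
Eef1a2 (chr2:181157016-181157215, minus strand): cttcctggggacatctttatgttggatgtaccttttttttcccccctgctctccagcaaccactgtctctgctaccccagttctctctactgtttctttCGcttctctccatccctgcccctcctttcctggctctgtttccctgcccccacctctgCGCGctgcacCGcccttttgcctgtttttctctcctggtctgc
Eif4a3 (chr11:119300044-119300243, minus strand): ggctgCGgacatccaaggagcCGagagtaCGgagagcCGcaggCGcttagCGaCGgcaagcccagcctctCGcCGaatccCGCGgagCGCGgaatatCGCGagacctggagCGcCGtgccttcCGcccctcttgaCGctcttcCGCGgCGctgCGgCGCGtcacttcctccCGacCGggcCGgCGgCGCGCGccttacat
Eif4a3l1 (chr6:136327339-136327538, plus strand): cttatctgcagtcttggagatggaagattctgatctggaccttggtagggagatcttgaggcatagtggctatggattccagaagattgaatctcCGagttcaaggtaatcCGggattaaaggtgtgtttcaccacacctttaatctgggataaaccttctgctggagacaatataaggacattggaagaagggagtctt
Eif5a, Eef1a1 and Eif4a3 had a peak in both replicates, Eif5a2 had one in replicate 2 alone, and Eef1a2 and Eif4a3l1 had none. Eif4a3 holds 32 CpGs in this stretch and Eif4a3l1 holds 2. Eef1a1 holds 15 against 4 in Eef1a2. At the starts taken, Eif5a and Eif5a2 do not follow that order, with 14 CpGs in Eif5a and 22 in Eif5a2. That depends on the start. From 250 bp before to 50 bp after a listed start, Eif5a holds 11 to 46 CpGs across its 6 starts, and Eif5a2 holds 34. Among genes not printed, Eif4g1 had a peak at its end in both replicates and Eif4g3 did not. In such windows Eif4g1 holds 23 CpGs and Eif4g3 holds 37, though the listed starts of Eif4g3 did carry peaks.

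How many translation factor genes carried a peak was asked first. A gene is termed called when both replicates had a summit, the highest point of a peak, at most 1000 bp from one of its ends. Of the 64 genes, 47 were called (73.4%, exact 95% interval 60.9 to 83.7%), against 31.9% of all protein-coding genes (33.5% of those on chromosomes 1 to 19). Replicate 1 had a summit at 47 of the 64 genes and at 32.6% of all genes. Replicate 2 had one at 57 of the 64 genes and at 45.5% of all genes. No translation factor gene had a summit in replicate 1 alone. Such genes were rare in general, since 6981 of the 7128 genes with a summit in replicate 1 had one in both replicates. A further 10 of the 64 genes had one in replicate 2 alone (13.6% of all genes), and 7 had none in either replicate (53.8% of all genes). The interval covers the sampling of genes only. The labels do not state whether each replicate had its own animals, so the agreement between them may be technical.

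The count was lower under stricter rules. When only peaks with −log10 q of 5 or more were kept, 37 of the 64 genes and 21.1% of all genes were called. When only peaks with a fold enrichment of 5 or more were kept, 21 of the 64 genes and 9.52% of all genes were called. Fold enrichment is the authors' ratio of signal over background at the summit. Its size was compared only within a list, as a percentile. This is the peak's rank from the lowest value, as a percentage of that list's peaks, with tied peaks given their average rank. Ties are common, with 2210 distinct fold enrichments among 12702 peaks in replicate 1 and 1007 among 25787 in replicate 2. Leaving out summits near the ends of more than 1 protein-coding gene gave 32 of the 64 genes and 21.7% of all genes.

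**Figure D1:**
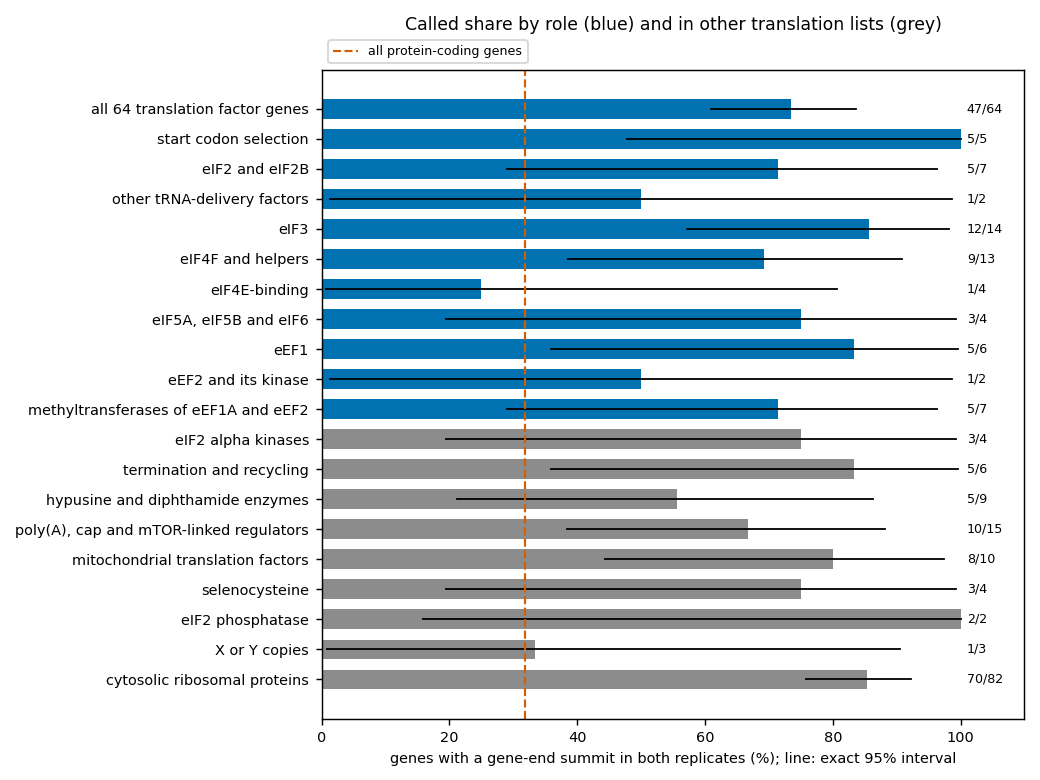
Horizontal bars give the percentage of genes with a summit within 1000 bp of a gene end in both replicates, for the translation factor genes by role (blue) and for other lists of translation genes (grey). Black lines are exact 95% intervals, and the dashed line marks 31.9% of all protein-coding genes. All 5 genes grouped here under start codon selection, Eif1ad among them, were called, and 1 of 4 eIF4E-binding genes was.

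The called genes also ranked high within each list. Their median percentile by fold enrichment was 72.7 in replicate 1 and 90.03 in replicate 2, against 58.9 and 85.4 over all 6981 called genes. Each gene was scored by the lower of its percentiles in the lists. By this score 13 of the 47 genes (27.7%) were among the top 1000 called genes, which ties extended to 1011, or 14.5% of called genes. They were led by Eif5a (rank 1), Eif5 (73) and Eif2s2 (105), followed by Eif3j1 (170), Eif4a3 (183), Eif1 (185), Eif4a2 (195) and Eif4g2 (220). Fold enrichments of the replicates correlated weakly across the 47 genes (Spearman's rho 0.36, against 0.34 over all called genes). Genes at shared peaks are not independent points in these correlations.

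**Figure D2:**
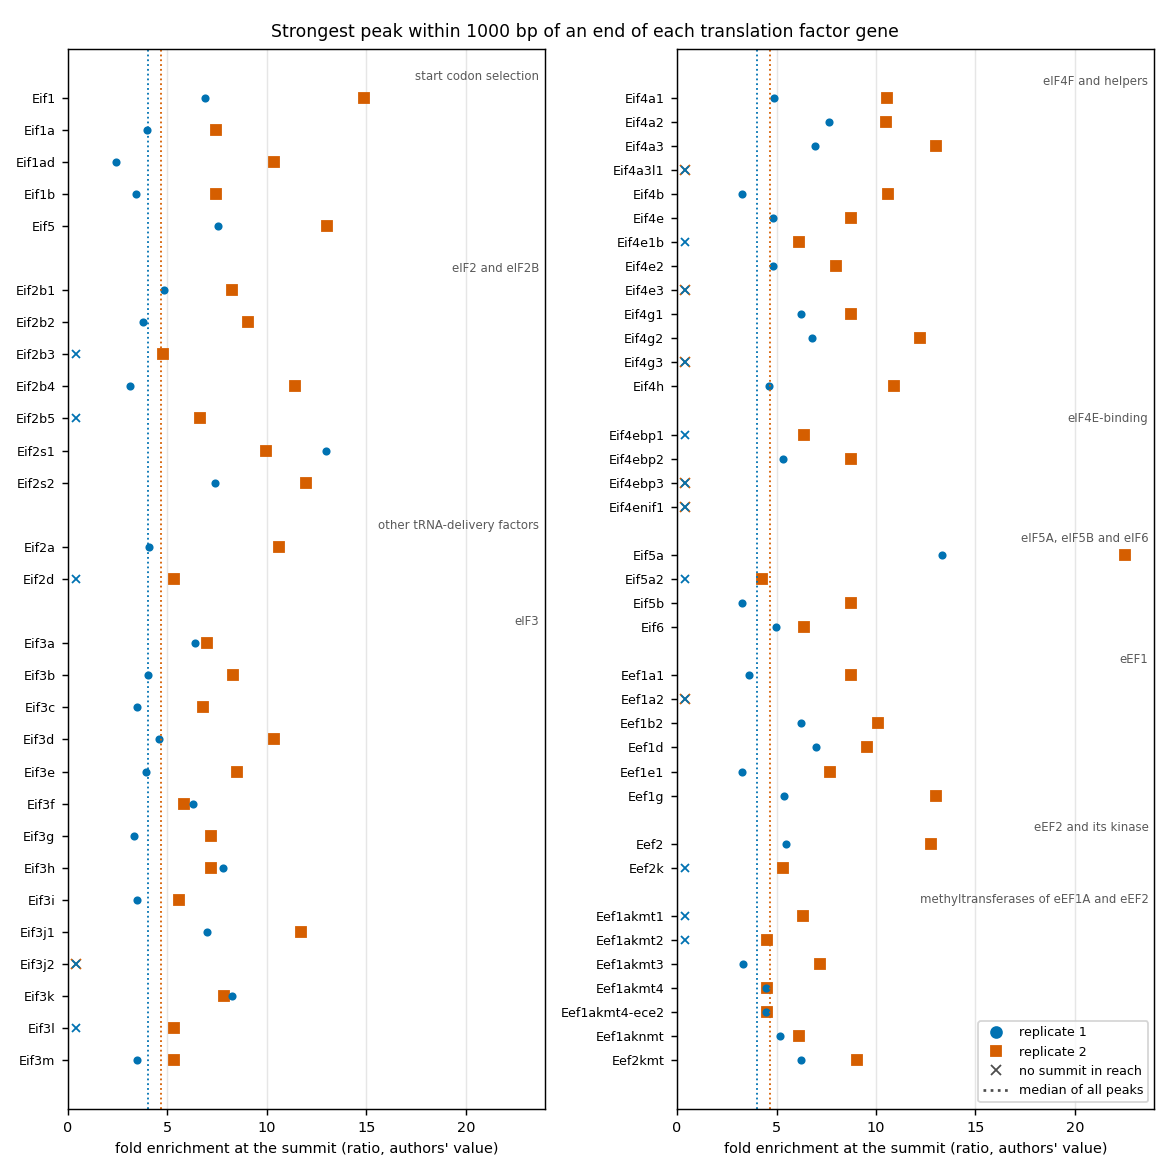
Each row is a translation factor gene, grouped by role. Circles (replicate 1) and squares (replicate 2) give the authors' fold enrichment of the strongest peak with a summit within 1000 bp of a gene end, crosses mark no such summit, and dotted lines are the medians of all peaks, 4.04 and 4.66. Eif5a stands farthest right in both replicates, at 13.3 and 22.5.

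All 5 genes grouped here under start codon selection were called. They include Eif1ad, whose product was not checked here for a part in that step. Eif1, whose product keeps the scanning ribosome from stopping at wrong codons, lies at 100319949 to 100322099 on chromosome 11. Its peaks reached 6.90-fold enrichment in replicate 1 and 14.9-fold in replicate 2, the latter at percentile 99.8 of its list. Eif5, which encodes the factor that triggers GTP hydrolysis on eIF2, had values of 7.56 and 13.02 (chromosome 12, 111538101 to 111546753). Both of its summits lay close to the start, 8 bp upstream in replicate 1 and 24 bp downstream in replicate 2. The paralog Eif1b had weaker peaks than Eif1 in each list, with 3.404 in replicate 1 and 7.44 in replicate 2. Eif1a, for the partner of eIF1 on the small subunit, had 3.99 and 7.44, and its peak was within reach of Tmed7. Eif1ad, for a protein with an eIF1A-like domain, showed the largest disagreement between lists among the called genes, at percentile 0.823 in replicate 1 (fold enrichment 2.42) and 95.6 in replicate 2 (10.4). Its peak was shared with Banf1.

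eIF2 carries the initiator tRNA, and phosphorylation of its alpha subunit, the product of Eif2s1, is the switch of the integrated stress response. Eif2s1 had the second-highest replicate 1 value of the 64 genes, with 12.98 (percentile 99.98), while replicate 2 gave 9.95 (percentile 94.5). This peak, at 78861227 to 78862518 on chromosome 12 in replicate 1, was also within reach of Atp6v1d. Eif2s2, for the beta subunit, had 7.39 and 11.96, with summits 35 and 66 bp downstream of the start. Both subunit genes thus lay at percentile 94.5 or higher in each list.

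eIF2B recharges eIF2 with GTP, and its 5 subunit genes were split. Eif2b1 (4.82 and 8.24, shared with Gtf2h3), Eif2b2 (3.79 and 9.03) and Eif2b4 (3.12 and 11.4, shared with Snx17) were called. Eif2b2 had 2 peaks near its start in replicate 1, and a single wide one of 1351 bp in replicate 2. Eif2b3 and Eif2b5 had a summit in replicate 2 alone, with fold enrichments of 4.78 and 6.64. The nearest replicate 1 summits were 24049 bp from an end of Eif2b3 and 7808 bp from an end of Eif2b5. Of the other factors that can deliver tRNA, Eif2a was called (4.09 and 10.6, shared with Serp1). Eif2d had summits at both ends in replicate 2, with 5.31 at the start and 4.25 at the far end. The nearest replicate 1 summit to Eif2d was 1077 bp from its far end (3.80), just outside the window. At its start replicate 1 had no near summit, with the nearest at a signed distance of -6748 bp.

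eIF3 is the large scaffold on the small ribosomal subunit, and 12 of its 14 genes were called. Their fold enrichments ran from 3.32 to 8.24 in replicate 1 (median 4.30) and from 5.31 to 11.7 in replicate 2 (median 7.17). The latter median is below that of the called eIF4F genes, 10.5, and no test of this difference was made. Eif3j1 ranked highest (6.97 and 11.7). Eif3k followed in rank with 8.24 and 7.86 at a peak also in reach of Map4k1, and its summits lay 2 and 62 bp upstream of the start. Eif3h had 7.78 and 7.17, and Eif3a, for the largest subunit, had 6.37 and 6.99. Eif3f (6.27 and 5.85), Eif3d (4.60 and 10.4), Eif3b (4.01 and 8.30) and Eif3e (3.94 and 8.50) came next.

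The weakest called eIF3 genes had low values in replicate 1, where equal values are common. Eif3c, Eif3i and Eif3m each had a fold enrichment of 3.45 there and Eif3g had 3.32, at percentiles of 19.6 to 25.6. Their replicate 2 values were 6.77, 5.58, 5.31 and 7.17. None of these 4 genes was called with −log10 q of at least 5. Eif3l had a summit in replicate 2 alone, 135 bp downstream of the start (5.31), and the nearest replicate 1 summit was 12265 bp away. Eif3j2, the copy of Eif3j1 on another chromosome, was farther from peaks than any other gene of the group, with nearest summits 902811 and 902561 bp away.

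eIF4F joins the cap-binding protein eIF4E, the helicase eIF4A and the scaffold eIF4G, and 9 of 13 genes for these proteins, their relatives and helpers were called. Of the 4 helicase genes, Eif4a2 and Eif4a3 ranked high. Eif4a2 had fold enrichments of 7.65 and 10.5, and Eif4a3, whose product marks exon junctions, had 6.92 and 13.02. Eif4a1, at rank 2019, had a peak at each end of the gene in both replicates. At its start the values were 4.87 and 10.5, within reach of Senp3 in replicate 2 (not recorded for replicate 1). At the other end they were 4.89 and 8.77, within reach of Cd68 in replicate 1 (not recorded for replicate 2). Eif4a1 and Eif4a2 thus both carried a peak at the start in each replicate, stronger at Eif4a2 in replicate 1 and of like size in replicate 2. Eif4a3l1, a relative of Eif4a3, had no summit within 119851 bp in either list.

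The scaffold genes differed. Eif4g1 had 6.22 and 8.77, and Eif4g2, for a scaffold that lacks the eIF4E site and serves cap-independent initiation, had 6.78 and 12.2. Peaks at Eif4g2 were among the widest of the group, 2045 bp in replicate 1 and 2254 bp in replicate 2. Eif4g3 was not called, because its annotated gene begins at 137991779 on chromosome 4 while RefSeq lists its starts at 137993455 and 137993456. At the first of these starts there was a peak in each replicate, with summits 140 bp upstream (3.71) and 5 bp downstream (8.24).

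The cap-binding genes gave a similar picture. Eif4e had 4.82 and 8.77, with summits 944 and 946 bp from the gene's end, close to the limit of the window, but less far, and upstream, from its other listed start (signed distances of -133 and -131 bp). Eif4e2, for a cap-binding repressor, had 4.82 and 7.97. The helicase cofactor genes Eif4b (3.28 and 10.6) and Eif4h (4.60 and 10.9) were called. Eif4e1b, an eIF4E relative of the germ line, had a summit in replicate 2 alone, beyond its higher-coordinate end and also in reach of Tspan17 (6.11). Eif4e3 had no summit within 26226 bp of either end. Inside Eif4e3, replicate 1 had 1 weak peak (2.94) and replicate 2 had 3 (4.25, 4.25 and 5.58).

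Of the 4 eIF4E-binding genes 1 was called (exact 95% interval 0.631 to 80.6%, against 31.9% of all genes). Eif4ebp1, Eif4ebp2 and Eif4ebp3 encode repressors that release eIF4E when mTOR phosphorylates them, and Eif4enif1 encodes a protein that carries eIF4E to the nucleus and to processing bodies. Eif4ebp2 was called, with 5.34 in replicate 1 and 8.77 in replicate 2. Eif4ebp1 had 2 peaks in reach in replicate 2, the stronger with 6.38 and a summit 906 bp inside the gene. In replicate 1 its nearest summit was 1039 bp from the end (2.67), so a slightly wider window would have called it. The nearest summits to Eif4ebp3 were 4009 and 3878 bp from an end, and those to Eif4enif1 21794 and 21971 bp.

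Eif5a, at 69916712 to 69921958 on chromosome 11, had the strongest peaks of the group. eIF5A and its paralog are the only proteins known to carry hypusine, a modified lysine, and eIF5A helps ribosomes past proline-rich stretches. The replicate 1 peak ran from 69920807 to 69922425, with a fold enrichment of 13.3 and −log10 q of 47.4. The replicate 2 peak ran from 69919486 to 69922457, with 22.5 and 86.9. Summits were 46 and 116 bp upstream of the start at 69921386, within the stretch printed above. Since the annotated gene reaches farther upstream, those summits were 526 and 456 bp from the gene's end, and Eif5a was not called with a 500 bp window.

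Its paralog Eif5a2 had a single weak peak in replicate 2, with a fold enrichment of 4.25 (percentile 40.1) and a summit 237 bp downstream of the start. The nearest replicate 1 summit was 6697 bp from an end of the gene. Dhps and Dohh, for the enzymes that make hypusine, were called, with 5.91 and 8.24 for Dhps and 5.63 and 10.6 for Dohh. Eif5b, for the factor of subunit joining, had its strongest peaks 751 and 883 bp upstream of the start, in reach of Txndc9 (3.25 and 8.77). Replicate 1 also had a weaker peak at Eif5b, with a summit 256 bp downstream of the start (2.65). Eif6, for a factor that holds the large subunit back, had peaks at both ends. At its higher-coordinate end they had 2.92 and 6.38, and at its lower-coordinate end 4.97 and 6.28. Mmp24 and BC029722 were in reach of the lower-coordinate peak in replicate 1 (not recorded for replicate 2).

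Of the 6 eEF1 genes, 5 were called. Eef1a1, for the tRNA-delivering factor of most tissues and one of the most abundant cell proteins, had only moderate peaks, with 3.62 in replicate 1 (percentile 31.9) and 8.77 in replicate 2 (percentile 90.03). Eef1a2, its paralog of muscle and nerve, had no summit within 131054 bp in replicate 1 or 30326 bp in replicate 2. Genes for the exchange complex that recharges eEF1A gave stronger peaks. Eef1d had 6.97 and 9.57 at a peak in reach of Tigd5, and Eef1g had 5.38 and 13.02 at a peak in reach of Tut1. Eef1b2 had a peak at each end in both replicates. At its start, within reach of Ndufs1 in replicate 2 (not recorded for replicate 1), the values were 5.92 and 10.1. At the other end they were 6.22 and 5.95. Eef1e1, for a small protein of the tRNA synthetase complex, had 3.27 and 7.71.

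Eef2, for the translocation factor, also had a peak at each end in both replicates. At its start, at 81176631 on chromosome 10, the values were 5.49 and 12.8, and 449 and 410 bp from the other end they were 4.01 and 10.6. Eef2k, for the kinase that inactivates eEF2, had a summit in replicate 2 alone, 39 bp upstream of its first listed start (5.31). In replicate 1 the nearest summit was 7346 bp away. Enzymes that methylate eEF1A and eEF2 were called in 5 of 7 cases, with the readthrough gene counted. Eef2kmt was the strongest of them (6.25 and 9.03), ahead of Eef1aknmt (5.16 and 6.11), Eef1akmt4 (4.46 and 4.50) and Eef1akmt3 (3.32 and 7.17, shared with Mettl1). The strongest summit of Eef1akmt4 in replicate 2 was also within reach of Alg3. Eef1akmt1 and Eef1akmt2 had summits in replicate 2 alone, with 6.33 and 4.52.

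The 10 genes with a summit in replicate 2 alone had fold enrichments from 4.25 to 6.64 there. Their median of 5.31 (percentile 62.2) was above the median of all replicate 2 peaks, 4.66, and below that of the called genes, 8.77. Of the 47 called genes, 7 had a replicate 2 value at or below 6.64. Replicate 2 held 25787 peaks and replicate 1 held 12702, and the part of this difference in the 10 calls was not tested.

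Where peaks lay relative to the start of transcription was measured with the RefSeq promoter table, which held 48 of the 64 genes. Entries were missing for Eef1akmt1, Eef1akmt3, Eef1d, Eef1g, Eif1a, Eif2b3, Eif3e, Eif3h, Eif3i, Eif3j2, Eif4e1b, Eif4e3, Eif4ebp1, Eif4ebp3, Eif4g2 and Eif6. Of the 48 genes, 39 had a summit within 1000 bp of a listed start in both replicates, against 34.5% of the 17492 protein-coding genes in the table. This count gained Eif4g3 and lost no called gene with an entry. In 38 called genes with an entry, the strongest summit lay a median of 118 bp from the nearest listed start in replicate 1 and 70.5 bp in replicate 2. Over all called genes these medians were 128 and 120 bp.

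Replicate 2 summits at these genes were tightly placed. Of the 38 genes, 35 (92.1%) had the summit within 200 bp of a start, against 68.7% of all called genes. In replicate 1 the count was 24 (63.2%), against 66.4% of all called genes. Among genes with a single listed start the replicate 2 shares were 32 of 35 (91.4%) and 68.5%. The signed positions were centred just upstream of the start, with medians of -13.5 and -42.5 bp, against -37 and -42 bp over all called genes. In replicate 1, 16 of the 38 summits lay downstream of the start, and in replicate 2, 15 did (42.1 and 39.5%, against 40.8 and 38.9% of all called genes).

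**Figure D3:**
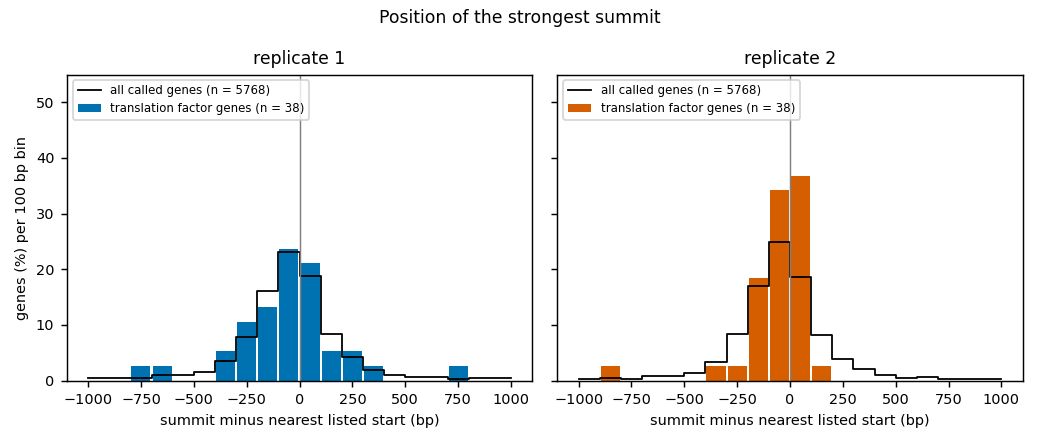
Bars give the percentage of the 38 called translation factor genes with a promoter entry whose strongest summit falls in each 100 bp bin around the nearest listed start (negative is upstream). The black line gives the same for 5768 called genes. In replicate 2 the bars gather within 200 bp of the start, with 35 of 38 genes there.

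The replicates placed their strongest summits a median of 85 bp apart at the 47 called genes, against 106 bp over all called genes. These peaks overlapped at 44 of the 47 genes (93.6%), against 96.9% of all called genes. The exceptions were Eef1b2, Eif4a1 and Eif6, where the stronger peak was at opposite ends in the 2 replicates. Each of these had overlapping peaks at the same end as well, so all 47 genes had overlapping peaks at a common end, as did 6927 of the 6981 called genes. Peaks were slightly wider than at other called genes, with medians of 776 and 1414 bp against 661 and 1250 bp.

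Peaks at both ends of a gene were seen in both replicates at 4 of the 47 genes (8.51%), Eef1b2, Eef2, Eif4a1 and Eif6, against 2.48% of all called genes. Replicate 2 had weaker peaks at the far end of 5 more genes, with 3.19 at Eif4g1, 3.37 at Eif5a, 3.71 at Eef1d and 3.99 at Eif5 and Eef1akmt4. In that replicate 9 of the 47 genes (19.1%) thus had summits at both ends, against 7.38% of all called genes. Called translation factor genes were also shorter, with a median of 11827 bp against 21286 bp. The part of gene length in the count of peaks at both ends was not tested. At 17 of the 47 genes the strongest summit in at least 1 replicate was within reach of another protein-coding gene. In each replicate this held for 16 genes (34.0%), close to the 32.3% of all called genes. Reach counts either end of a gene, so the neighbour's end near a summit need not be its start. Peaks in reach of both Eif2b1 and Gtf2h3, or of both Eef1g and Tut1, cannot be assigned to either gene.

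Some translation factor genes are hosts of small RNA genes, which lie within their bounds. By the annotation 11 of the 64 genes (17.2%) held a snoRNA or miRNA gene, against 4.64% of all protein-coding genes. They were Eef1b2, Eef2, Eif3a, Eif3b, Eif4a1, Eif4a2, Eif4e, Eif4g1, Eif4g2, Eif4g3 and Eif5. Of these 11 host genes, 10 were called, and Eif4g3 was the exception. Among all 1016 host genes 47.7% were called.

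The promoter windows, from 250 bp before to 50 bp after each listed start, were rich in CpG. The ratio of observed to expected CpG had a median of 0.93 in the 38 called translation factor genes with an entry and 0.75 in the 10 that were not called. It was 0.84 over all called genes and 0.37 over genes not called. For genes with several windows the highest ratio was taken. A window is termed CpG-dense at a ratio of at least 0.6 with at least 50% G and C. By that rule 35 of the 38 called genes (92.1%) had a CpG-dense window, against 81.7% of all called genes and 31.9% of genes not called.

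The genes outside this pattern can be named. Eif3b, Eif3f and Eif3k were called without a CpG-dense window, since their G and C content was 49.0, 46.0 and 49.7%, with ratios of 0.81 to 1.03. Among genes without a summit in either replicate, Eif4a3l1 had a ratio of 0.20 and Eef1a2 of 0.42. Eif4enif1 had a CpG-dense window, with a highest ratio of 0.99, and no summit near either end. Eif4g3 had 1.10, and its start did carry peaks. Among the 6 genes with an entry and a summit in replicate 2 alone, the ratios ran from 0.41 in Eif2b5 to 0.91 in Eif5a2.

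**Figure D4:**
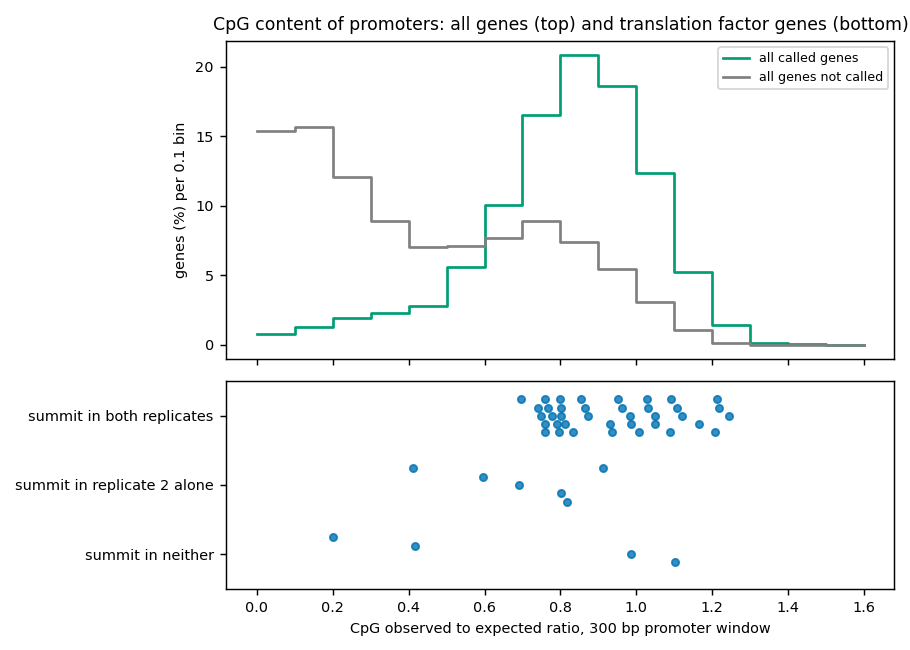
Upper panel, the percentage of all called (green) and not called (grey) genes in each 0.1 bin of the observed to expected CpG ratio in the promoter window. Lower panel, each dot is a translation factor gene with an entry, placed by the same ratio and by where it had a summit. Dots of genes with a summit in both replicates start at 0.70 (Eef1a1), and the lowest dot, at 0.20, is Eif4a3l1.

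The promoter windows were searched on both strands for 10 short motifs, and of these the E-box CACGTG differed by the most percentage points from all called genes. At least 1 window held it in 13 of the 38 called genes (34.2%, exact 95% interval 19.6 to 51.4%). The share was 12.6% over all called genes, 8.91% over all genes with an entry, 9.68% in 62 cytosolic ribosomal protein genes and 15.9% in 44 genes of the other translation lists. Restricted to genes with a CpG-dense window it was 31.4% against 13.8% of all called genes. Restricted to genes with a single window it was also 31.4%, against 11.3%. The translation factor genes that were not called had a like share where their window was CpG-dense, 2 of 6 (33.3%). Of all 48 translation factor genes with an entry, 15 (31.25%) held the E-box. Eef1akmt4 and its readthrough gene share their window and count as 2 of the 13. No test of these differences was made, and the motif was singled out after the values of all 10 had been seen.

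These 13 genes held 15 distinct E-boxes, of which 13 lay inside a peak of both replicates. They are printed because they show where the motif sits under the peaks. The windows searched lie around the starts, as most of these peaks do. Any string in them is therefore likely to fall inside a peak and near a summit. No other motif was placed against the peaks for comparison. Each line gives the E-box in capitals with 12 bases on each side, 5′ to 3′ on the gene's strand, from RefSeq (build GRCm38.p6).
Eef1aknmt (chr1:162548475-162548504, minus strand): gtgtggctgctgCACGTGgggcgcggaccg
Eef2 (chr10:81176576-81176605, plus strand): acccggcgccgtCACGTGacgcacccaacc
Eif1b (chr9:120492570-120492599, plus strand): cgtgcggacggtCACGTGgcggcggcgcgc
Eif3a (chr19:60790654-60790683, minus strand): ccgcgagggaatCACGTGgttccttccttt
Eif3f (chr7:108934335-108934364, plus strand): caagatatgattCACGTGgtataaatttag
Eif3k (chr7:28981915-28981944, minus strand): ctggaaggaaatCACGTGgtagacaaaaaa
Eif4a1 (chr11:69672595-69672624, minus strand): cgatcgcctccgCACGTGtaaaggtgctgg
Eif4e (chr3:138527028-138527057, plus strand): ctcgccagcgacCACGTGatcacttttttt
Eif4e (chr3:138527192-138527221, plus strand): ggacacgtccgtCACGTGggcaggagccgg
Eif4g1 (chr16:20672661-20672690, plus strand): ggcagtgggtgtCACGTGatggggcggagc
Eif4g1 (chr16:20672730-20672759, plus strand): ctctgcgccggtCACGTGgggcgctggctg
Eif4h (chr5:134639488-134639517, minus strand): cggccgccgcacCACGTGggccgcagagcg
Eif5a (chr11:69921443-69921472, minus strand): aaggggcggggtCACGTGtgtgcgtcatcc
The distance from an E-box of a called gene to the nearest summit had a median of 114 bp in replicate 1 (26 to 626 bp) and 57 bp in replicate 2 (12 to 696 bp). Eif5a holds 2 E-boxes. The printed one lay 26 and 44 bp from the summits, and the other, outside the replicate 1 peak, gave the upper ends of these ranges, 626 and 696 bp. At Eef1aknmt the distances were 40 and 12 bp, at Eif3k 40 and 20 bp, and at Eef2 181 and 14 bp. Eif4e and Eif4g1 each hold 2 E-boxes inside their peaks. The genes with an entry that were not called held the motif in 2 of 10 cases, Eef2k and Eif5a2, which had a summit in replicate 2 alone. A match is only a string of letters, and whether any protein binds it was not measured here.

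Other motifs were nearer to the shares of called genes in general. The ETS core CCGGAAG was found in 31.6% of the 38 genes and in 24.9% of all called genes, against 12.9% of all genes. The GC box GGGCGG was found in 78.9% and 71.7%, against 49.2%, and its longer form GGGGCGGGG, which contains it, in 15.8% and 26.6%, against 17.3%. The NF-Y box CCAAT was less frequent, in 34.2% against 43.8% of all called genes and 42.3% of all genes. The TBP box TATAAA stood in 10.5% of the 38 genes, 7.63% of called genes and 14.8% of all genes. The CRE motif TGACGTCA was found in 1 of the 38 genes (4.49% of called and 2.54% of all genes) and the YY1 motif CAAGATGGC in 2 (3.45% and 1.65%). The palindromes of NRF1 and ZBTB33 were found in 1 and 0 of the 38 genes, against 3.03 and 1.63% of called genes and 1.47 and 0.755% of all genes.

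**Figure D5:**
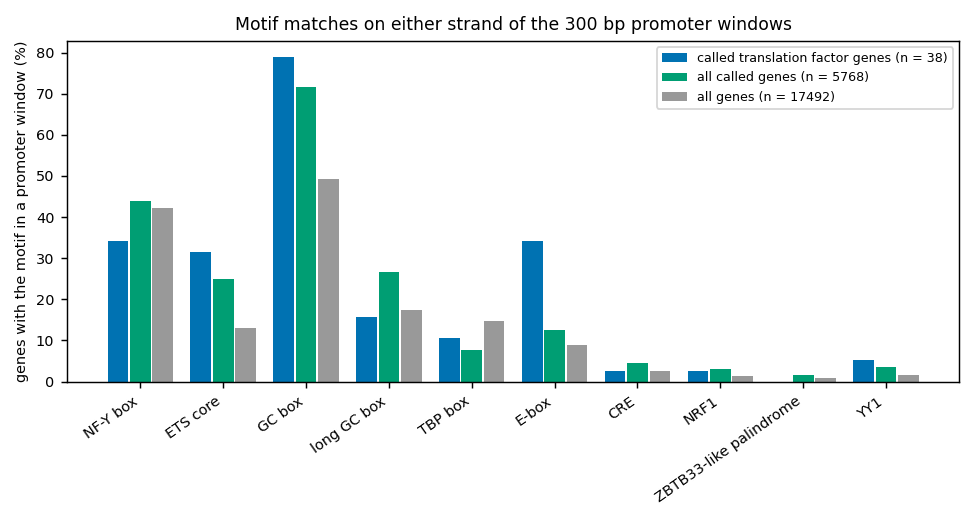
Bars give the percentage of genes with each motif on either strand of a promoter window, for the 38 called translation factor genes (blue), 5768 called genes (green) and 17492 genes with an entry (grey). The E-box bar stands at 34.2% in the translation factor genes and at 12.6% in all called genes.

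Many translation factor mRNAs are known for a 5′ terminal oligopyrimidine tract, a C at the first base followed by pyrimidines, through which mTOR controls them. By the listed starts, a C with 4 pyrimidines after it stood at the first base in 1 of the 38 called genes, Eif3f, and in 2.67% of all genes. A listed start that is off by a few bases would hide such a tract.

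Other lists of translation genes outside the symbol rule, apart from the list of Eif1ax, Eif2s3x and Eif2s3y, were called at shares from 55.6 to 100.0%, against 31.9% of all genes. Of 6 termination and recycling genes 5 were called, with Etf1, for the release factor that reads stop codons, strongest (7.41 and 9.61). Gspt2 had no summit. Of 4 kinases that phosphorylate eIF2, Eif2ak1 (2.69 and 5.94), Eif2ak3 (5.03 and 9.83) and Eif2ak4 (4.09 and 7.17) were called, and Eif2ak2 had a summit in replicate 2 alone (3.99). Both genes for subunits that direct dephosphorylation of eIF2 were called, Ppp1r15a with 4.45 and 9.83 and Ppp1r15b with 5.55 and 13.3.

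Regulators of mRNA recruitment were called in 10 of 15 cases. Mknk2, for a kinase of eIF4E, had 6.73 and 14.1, and Pabpc1, for the poly(A)-binding protein, had 8.66 and 10.9. Pdcd4, Larp1, Mknk1 and Mcts2 had no summit near their ends. Hypusine and diphthamide enzyme genes were called in 5 of 9 cases, and the other 4 had a summit in replicate 2 alone. Of 10 mitochondrial translation factor genes 8 were called, with a median percentile of 26.8 over the called genes in replicate 1, against 72.7 for the cytosolic factors, and of 81.4 against 90.03 in replicate 2. Of 4 selenocysteine genes 3 were called, including Secisbp2 (6.13 and 10.1). Cytosolic ribosomal protein genes, chosen here by symbol, were called in 70 of 82 cases (85.4%, exact 95% interval 75.8 to 92.2%), with median percentiles of 68.9 and 90.7. That interval overlaps the one for the 64 translation factor genes, and no test of the difference was made.

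Peaks inside the translation factor genes, with summits more than 1000 bp from both ends, were also counted. Replicate 2 had 21 of them in 12 genes, and replicate 1 had 5 in 5 genes, Eif1a, Eif4e3, Eif4ebp1, Eif4g3 and Eif5a. The strongest of these was in Eif5a, at 69919502 to 69920438, with a fold enrichment of 5.78 (percentile 88.5), next to its main peak. Replicate 2 covered that place with the single wide peak of 2972 bp described above. The longest gene with internal peaks, Eif4g3, had 5 in replicate 2, of which the one at its listed starts was the strongest (8.24) and the others had 2.84 to 5.05.

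The width of the window moved few genes. With 500 bp, 43 of the 64 genes and 27.9% of all genes were called, and Eif3b, Eif4e, Eif5a and Eif5b dropped out. With 3000 bp, 50 of the 64 and 36.8% of all genes were called, and Eif2d, Eif4ebp1 and Eif4g3 came in. The summit nearest to the 1000 bp limit from inside was the weak far-end one of Eif5a in replicate 2, at 998 bp, on which its call did not rest. Among the strongest summits of called genes, those of Eif4e lay nearest to the limit, at 944 and 946 bp, and those just outside were at Eif4ebp1 and Eif2d, 1039 and 1077 bp away in replicate 1.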

How the data were processed

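Occupancy of Flag-tagged Nynrin was measured in lineage-negative marrow cells (2 ChIP and 2 input libraries). Fixation lasted 10 min in 1% formaldehyde, and 16 cycles of amplification were applied to 10 ng of DNA before selecting 100 to 500 bp, per the labels' protocols. Without versions, the submitters' processing notes name the tools: cutadapt, Trimmomatic, FastQC, Bowtie2, MACS2 and ChIPseeker, with build mm10. Whether the input entered peak calling, and with what cutoff, is not given in the sources used here. For each ChIP library the authors deposited 1 peak list. Fold enrichment was deposited as a ratio on a linear scale, and the deposited −log10 p and −log10 q are those of the caller. The deposited score, 10 times the −log10 q, was not used. Peak lists carry no counts, so depth is unknown.

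Only peaks of the assembled chromosomes (1 to 19, X, Y) entered, 12702 in replicate 1 and 25787 in replicate 2. The summit was the 1-based start plus the deposited offset. Gene bounds, starts and promoter windows came from RefSeq tables of GRCm38.p6, matched by gene identifier. Where several peaks were in reach, the one with the highest fold enrichment was described. Neighbouring genes were named for that peak only. Shares carry exact Clopper-Pearson 95% intervals. Since only ChIP libraries had lists, no groups were compared and no test was made. The members and lists were chosen with earlier results of these data known. All members were named. Values were given for genes with a summit in 1 replicate, for up to 4 top-scoring called genes of each role, for genes with several peaks or called at 1000 but not 500 bp, and for paralogs, with the remaining called genes added after their values were seen. The calling steps were tested on simulated summits. Calculations used Python 3.11.15, numpy 2.4.6, pandas 2.3.3 and scipy 1.17.1.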

Additional observations from a re-analysis of the deposited data

How the results depend on the processing

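The number of translation factor genes called in both replicates was 47. It fell to 21 when a fold enrichment of at least 5 was required, as did the replicate 1 count, while the replicate 2 count was then 52. This setting removes peaks from the lists by construction. Under the other planned settings (window width, −log10 q, lists of equal length, any base of the peak, summits near several genes, start sites alone, a common gene end) the count in both replicates ran from 32 to 50. Leaving out 1 replicate gave 47 to 57. After seeing the data, the readthrough gene was left out (46 of 63 called) and ranks by −log10 q were taken (median percentiles 79.2 and 90.7). E-boxes were then also counted in other ways, giving 31.4% of called translation factor genes and 32.6% of their promoter windows. No paired analysis was possible because the counts come from no test between groups. Depth is unknown, so a gene without a peak may lie below the detection limit of its library.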

Other observations

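Copies of translation factor genes on the sex chromosomes lie outside the rule and are given as values. Eif2s3y, on chromosome Y, had a gene-end summit in both replicates, with fold enrichments of 3.98 and 5.05. Its X-linked counterpart Eif2s3x, which encodes the gamma subunit of eIF2, had one in replicate 2 alone (6.64), as did Eif1ax (3.45).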
